A study of Mus musculus with 6 samples.

Results

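The oligoadenylate synthetase (Oas) family was followed after exposure to itaconate in RAW264.7, a macrophage-like line from a mouse tumour. Its members were taken by gene symbol from the deposited count table and are Oas1a, Oas1b, Oas1c, Oas1g, Oas2, Oas3, Oasl1 and Oasl2, 8 of the 35976 symbols listed. Of these 8 genes, 7 passed the filter on low counts and were tested, and Oas1g did not pass it. The itaconate group consisted of 3 libraries from cells exposed to itaconate for 24 h, and the control group of 3 libraries from untreated cells of the same line. Dose, chemical form and vehicle are not stated in the labels, and neither is the origin of the 3 libraries of each group. If they share a culture, the spread that the p-values rest on is technical. Polyadenylated RNA was counted near its 3′ end (QuantSeq FWD), so the number of reads per transcript does not grow with its length. Levels are therefore given as CPM, counts scaled to a common library size with no division by length.

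Oligoadenylate synthetases are interferon-induced enzymes that bind double-stranded RNA, a product of viral replication, and then link ATP into short oligoadenylates. These oligoadenylates are second messengers of antiviral defence and are short-lived, since phosphodiesterases degrade them. The family also holds members without synthetase activity, among them Oasl1, which in the mouse restrains translation of the Irf7 message. Macrophages are known to keep many of these genes at a basal level through tonic interferon signalling.

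All 8 genes lie on mouse chromosome 5 (GRCm38.p6, RefSeq). Oas2, Oas3 and the Oas1 paralogs form a cluster of 10 genes from 120730333 to 120921648, and Oasl2 and Oasl1 lie together from 114896926 to 114937911. Oas1b and Oas1c stand head to head on opposite strands, with 95 bases between the outermost starts annotated for them. Distances given here count from the starts in the promoter table, except those of Oas1b, which count from its annotated gene start at 120812635. The promoter-table start lies inside the outermost RefSeq start for Oas1a, Oas1c, Oas3, Oasl1 and Oasl2, and equals it for Oas1g. RefSeq promoter sequences were found for 6 of the 8 members. They were searched, over the 250 bases before the start, for the core of the interferon-stimulated response element, taken as 2 runs of GAAA with any 2 bases between them, on both strands. This core is the letter pattern to which proteins of the IRF family bind. It was present in 4 of the 6 members' promoters, those of Oas1a, Oas1c, Oas1g and Oas3, and in 2.98% of all 32851 promoters in the table. The windows below are shown because the first 4 hold the same 16 bases. Capitals mark the matches to the core (overlapping matches form a single run), and each is written on the strand of the gene named.
Oas1a: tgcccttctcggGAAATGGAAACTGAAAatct
Oas1g: tgcccttctcggGAAATGGAAACTGAAAat
Oas1b: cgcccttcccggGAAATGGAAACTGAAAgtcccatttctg
Oas1c: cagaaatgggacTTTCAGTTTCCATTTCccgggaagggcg
Oas3: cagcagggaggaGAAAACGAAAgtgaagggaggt

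The window of Oas1a is chr5:120907526-120907557, that of Oas1g chr5:120887614-120887643 and that of Oas3 chr5:120777713-120777746, all on the minus strand. The Oas1b and Oas1c lines are a single stretch, chr5:120812601-120812640, read from its plus strand for Oas1b and from its minus strand for Oas1c. Its 16 capitals lie at -22 to -7 from the start of Oas1b and at -114 to -99 from the start of Oas1c. In Oas1a and Oas1g the same 16 bases lie at -20 to -5 and at -18 to -3. In Oas1a most of them fall within the gene as RefSeq annotates it, whose outermost start is 120907544. The 16 bases occurred in 7 of the 32851 promoters, which belonged to Oas1a, Oas1c, Oas1g, Apol9a and Apol9b. The core was not found in the windows of Oasl1 and Oasl2. A second pattern, the interferon-gamma activated site TTCNNNGAA, was present in the window of Oas1a alone among these 6, and in 7.02% of all promoters. A match describes the letters of a window and does not show that a factor binds there.

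**Figure D1:**
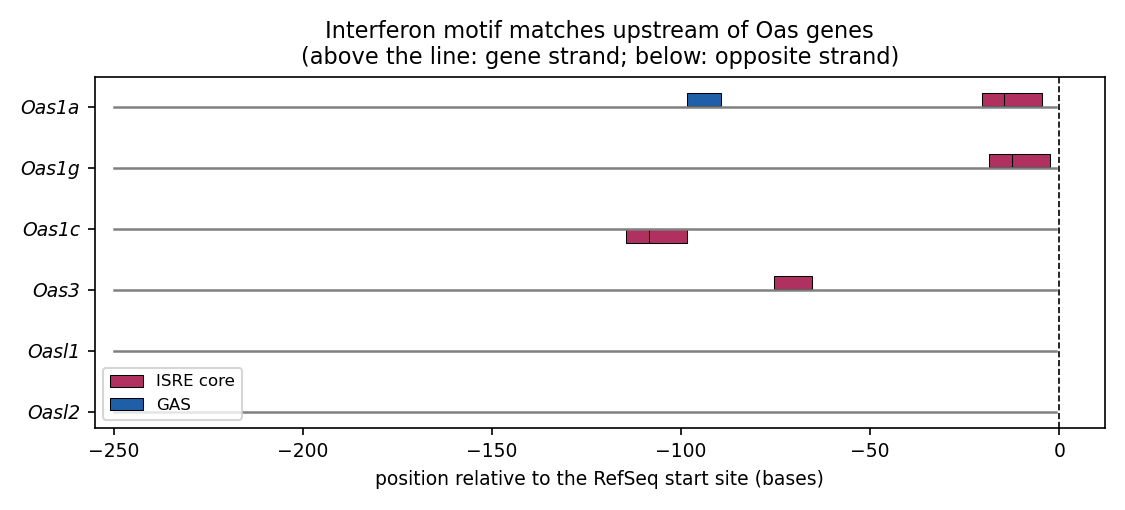
Matches to the interferon-stimulated response element core (ISRE core, dark red) and to the gamma activated site (GAS, blue) in the 250 bases before the RefSeq start of 6 Oas genes, by distance from the start in bases (horizontal axis). Oas1a and Oas1g carry a pair of overlapping core matches next to the start, Oas1c carries the pair on the opposite strand at -114 to -99, Oas3 carries a single match at -75 to -66, and Oasl1 and Oasl2 carry none.

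The libraries held 5382694 to 5923536 counts in the itaconate group and 5202626 to 6098934 in the control group, and 3 counts in a library correspond to between 0.487 and 0.565 CPM. The comparison asked which transcripts differ after itaconate. All 8 macrophage markers checked were detected. Of these 8, 1 was called higher and 5 lower, against 10.7% and 11.2% of all tested genes. The summed level of the 8 was 5973 to 6486 CPM in itaconate libraries against 7623 to 8916 CPM in control libraries. The gap in this sum came from Csf1r, at 1815 to 1855 CPM against 3279 to 4045 CPM. The other 7 summed to 4132 to 4631 CPM against 4344 to 5088 CPM and overlapped. Among them Cd68 was called higher (log2 fold change 0.30 ± 0.07). Itgam (-0.54 ± 0.12), Fcgr1 (-0.53 ± 0.15), Mpeg1 (-0.47 ± 0.07) and Ptprc (-0.23 ± 0.08) were called lower, and Adgre1 and Lyz2 were not called. Markers of other lineages summed to 0.753 to 2.62 CPM against 2.51 to 3.09 CPM for 6 fibroblast genes, and to at most 0.942 CPM against at most 0.933 CPM for 6 T and NK cell genes. The sums were at most 1.05 CPM against 0 CPM for 5 B cell genes and 0 CPM against at most 1.12 CPM for 5 epithelial genes. A plasmacytoid dendritic cell list of 5 genes summed to 388.5 to 434.9 CPM against 497.4 to 567.4 CPM, almost all of it from Bst2 and Tcf4, while its defining marker Siglech had 0 counts in every library. The part of these marker differences in the results that follow was not tested. In bulk RNA, fewer expressing cells and less RNA per cell cannot be told apart.

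Oas family transcripts were less abundant after itaconate. Oas2 fell most among the well-counted members, to 14.0% of its control level, Oasl2 fell further from a low level, Oas3 and Oasl1 fell to 55.3% and 56.1%, and Oas1c showed no detectable change. Summed over the 8 members, the libraries held 356, 311 and 324 counts after itaconate against 876, 1002 and 782 counts in control. The sum averaged 60.6 ± 5.62 CPM in itaconate and 151.8 ± 9.52 CPM in control libraries (SD, n = 3 each). Every itaconate library lay below every control library, and the summed log2 fold change was -1.33 ± 0.12 (SE, edgeR quasi-likelihood adjusted p = 2.47e-13). An exact two-sided permutation test over the libraries gave p = 0.1, the smallest that 3 against 3 can give.

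By member, 5 of the 7 tested genes were called lower at an edgeR adjusted p under 0.05 and 2 were not called. Without control replicate 2 the number called was 3, with Oas1a and Oas3 lost. Of all 10636 tested genes, 11.2% were called lower and 10.7% higher. The itaconate and control libraries did not overlap, with itaconate lower, for 6 of the 8 members, among them Oas1g, which was not tested. The same held for 17.9% of all tested genes, while 17.6% of all tested genes were separated with itaconate higher. The median log2 fold change was -1.54 over the 7 tested members and -0.01 over all tested genes. The median is the value of Oas1b, which was not called. These member counts and the median are a description, since Oas1a, Oas1b and Oasl2 reached 10 counts in all 3 control libraries and in fewer itaconate libraries, and so entered the test through the group in which they were higher. Oas1c, Oas2, Oas3 and Oasl1 had at least 10 counts in all 6 libraries.

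**Figure D2:**
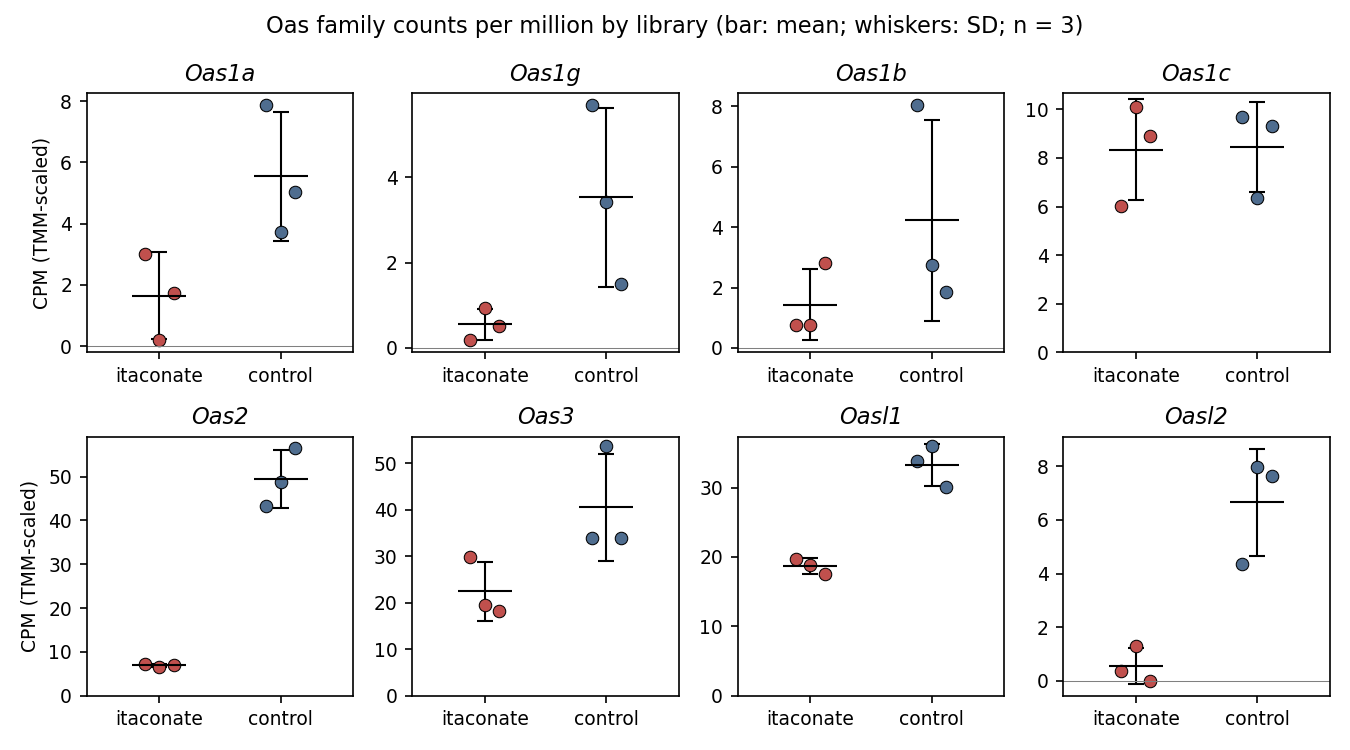
TMM-scaled CPM (vertical axes, each including 0 and with its own scale) of the 8 Oas genes in 3 itaconate (red) and 3 control (blue) libraries, with the mean (bar) and SD (whiskers). Oas2 sits between 6.54 and 7.16 CPM in itaconate and between 43.4 and 56.5 CPM in control, while the points of Oas1c cover the same range in both groups and those of Oas1b overlap.

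Oas2 encodes a synthetase with a tandem pair of enzyme units and had the highest mean level of the family in control cells, although Oas3 was higher in control replicate 2. It had 38, 35 and 40 counts in the itaconate libraries against 259, 300 and 303 counts in the control libraries. No itaconate library came near the control range, and the itaconate values were tightly grouped, at 6.90 ± 0.32 CPM against 49.5 ± 6.63 CPM (SD, n = 3 each). The log2 fold change was -2.84 ± 0.22 (SE, edgeR adjusted p = 2.98e-15, 95% interval -3.28 to -2.40), the 65th lowest of the 10636 tested genes. None of the 50-base stretches in the last 500 bases of Oas2 transcripts (GENCODE M21) occurred in transcripts of another gene, against 56.1% for Oas1a.

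Oas3 encodes the largest synthetase, whose human form responds to long double-stranded RNA. Its libraries held 158, 104 and 104 counts after itaconate against 202, 331 and 182 counts in control, or 22.5 ± 6.35 CPM against 40.5 ± 11.5 CPM (SD, n = 3 each). The groups did not overlap, but the highest itaconate library, at 29.8 CPM, lay just under the lowest control library, at 33.8 CPM. The log2 fold change of -0.85 ± 0.21 was called lower (edgeR adjusted p = 0.00159). That call was lost without control replicate 2, the highest library, where the log2 fold change was -0.59 (adjusted p = 0.0733).

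Oasl1 and Oasl2 carry ubiquitin-like domains behind the synthetase fold, and of the pair Oasl2 is the one with synthetase activity in the mouse. Oasl1 had 105, 101 and 100 counts in itaconate libraries against 202, 222 and 161 counts in control libraries. Its values were 18.7 ± 1.15 CPM against 33.3 ± 3.04 CPM (SD, n = 3 each), with a clear gap between the groups, and the log2 fold change was -0.83 ± 0.20 (edgeR adjusted p = 0.00143). Oasl2 had 2, 7 and 0 counts after itaconate against 26, 49 and 41 counts in control. The library with 0 counts allows a level of up to 0.525 CPM, a limit that covers counting error only. Oasl2 was called lower (log2 fold change -3.54 ± 0.72, edgeR adjusted p = 0.000171), and at 9 counts in the whole itaconate group the size of its fall is loosely bounded, with a 95% interval from -4.99 to -2.08. The call of Oasl2 held in all 6 fits that left out a library, but its log2 fold change was -5.03 without itaconate replicate 2 and -2.94 without itaconate replicate 3. The interval of its neighbour Oasl1 was -1.24 to -0.43, and the difference between these genes was not tested.

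Oas1a and Oas1g encode the Oas1 paralogs known to be active synthetases in the mouse, and their 3′ ends are alike. Of the 50-base stretches in the last 500 bases, 56.1% of those of Oas1a also occurred in Oas1g, and 42.4% of those of Oas1g also occurred in Oas1a. How reads that fit both were counted is not given in the sources used here, so the split between these genes is uncertain. Oas1a had 16, 1 and 10 counts in itaconate libraries against 47, 23 and 27 counts in control libraries. The groups did not overlap, and the log2 fold change was -1.74 ± 0.64 (edgeR adjusted p = 0.0424). Without itaconate replicate 1 it was -2.47 (adjusted p = 0.0213). The call of Oas1a was lost in 5 of the 6 fits that left out a library: without itaconate replicate 2 (adjusted p = 0.204) or 3 (0.0716) and without control replicate 1 (0.249), 2 (0.0563) or 3 (0.0954). Oas1g had 1, 5 and 3 counts after itaconate against 34, 21 and 8 counts in control and was too low to pass the filter. Its groups did not overlap, and the ratio of its pooled counts, itaconate over control, was 0.152 with a 95% exact binomial interval of 0.0667 to 0.308, which covers counting error only.

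Summing Oas1a and Oas1g, a choice made after the values were seen, removes the split between them. The pair had 17, 6 and 13 counts in itaconate libraries against 81, 44 and 35 counts in control libraries, and all itaconate values lay below all control values. The log2 fold change of the pair was -2.04 ± 0.49 (edgeR adjusted p = 0.00133). The fall of the pair missed the threshold without control replicate 1, which held the most Oas1a and Oas1g reads (log2 fold change -1.63, adjusted p = 0.0591). Over all Oas1 paralogs the log2 fold change was -0.83 ± 0.27 (adjusted p = 0.0181), and this call was lost without itaconate replicate 1 (adjusted p = 0.0889) or control replicate 1 (-0.47, adjusted p = 0.315).

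The head-to-head pair Oas1b and Oas1c did not pass the test. Oas1b is annotated as a transcribed pseudogene by RefSeq. Its full-length form is a flavivirus resistance factor, and most laboratory mouse strains carry a truncated form. Oas1b had 4, 4 and 16 counts in itaconate libraries against 48, 17 and 10 counts in control libraries. Itaconate replicate 3, at 2.80 CPM, lay just above control replicate 2 (2.76 CPM) and above control replicate 3 (1.87 CPM), and control replicate 1 stood far above all others, so the groups overlapped, with a log2 fold change of -1.54 ± 0.69 (edgeR adjusted p = 0.11). Without control replicate 1 the log2 fold change of Oas1b was -0.68 (adjusted p = 0.691), and without itaconate replicate 3 it was -2.46 and was called (adjusted p = 0.0397). Oas1c encodes a paralog without known synthetase activity. It had 32, 54 and 51 counts after itaconate against 58, 39 and 50 counts in control, or 8.35 ± 2.09 CPM against 8.46 ± 1.85 CPM (SD, n = 3 each). The ranges of Oas1c covered each other, with a log2 fold change of -0.02 ± 0.36 and a 95% interval from -0.74 to 0.70. The fold changes of the other 6 tested members lay below the lower end of that interval, and the difference between members was not tested. Only 7.5% of the 3′ stretches of Oas1c occurred elsewhere, in Oas1e, Oas1f and Oas1h, and these paralogs had 0 counts in all 6 libraries. Oas1c exons overlap Gm43069 on the opposite strand by 227 bases. Oas1d had 0, 3 and 1 counts in the itaconate libraries and 0 counts in the control libraries.

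The order of the members by level differed between the groups. In itaconate libraries Oas3 (22.5 CPM) and Oasl1 (18.7 CPM) stood highest, with overlapping values, followed by Oas1c (8.35 CPM) and Oas2 (6.90 CPM), whose values also overlapped. Oas1a, Oas1b, Oasl2 and Oas1g averaged 1.65, 1.43, 0.562 and 0.549 CPM there and were not distinct beyond their spread. In control libraries Oas2 (49.5 CPM), Oas3 (40.5 CPM) and Oasl1 (33.3 CPM) led, and neighbours in this order overlapped. Oas1c, Oasl2, Oas1a, Oas1b and Oas1g followed at 8.46, 6.65, 5.55, 4.22 and 3.53 CPM. Neighbours in this run overlapped, while its ends, Oas1c and Oas1g, did not.

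The make-up of the family counts was then compared. Oas2 made up 10.7%, 11.2% and 12.3% of the family counts in itaconate libraries against 29.6%, 29.9% and 38.7% in control libraries. Oasl1 took 30.9% ± 1.49 against 21.9% ± 1.25, Oas1c took 14.0% ± 4.44 against 5.64% ± 1.51, and Oas3 took 36.6% ± 6.74 against 26.5% ± 5.70 (SD, n = 3 each). The itaconate and control shares did not overlap for Oas2, Oasl1 and Oas1c (exact two-sided permutation p = 0.1 each, the smallest possible, and 0.133 adjusted over the 4 members compared), while those of Oas3 overlapped (p = 0.2). A share can rise because another member fell, and in CPM none of the 8 genes was called higher.

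**Figure D3:**
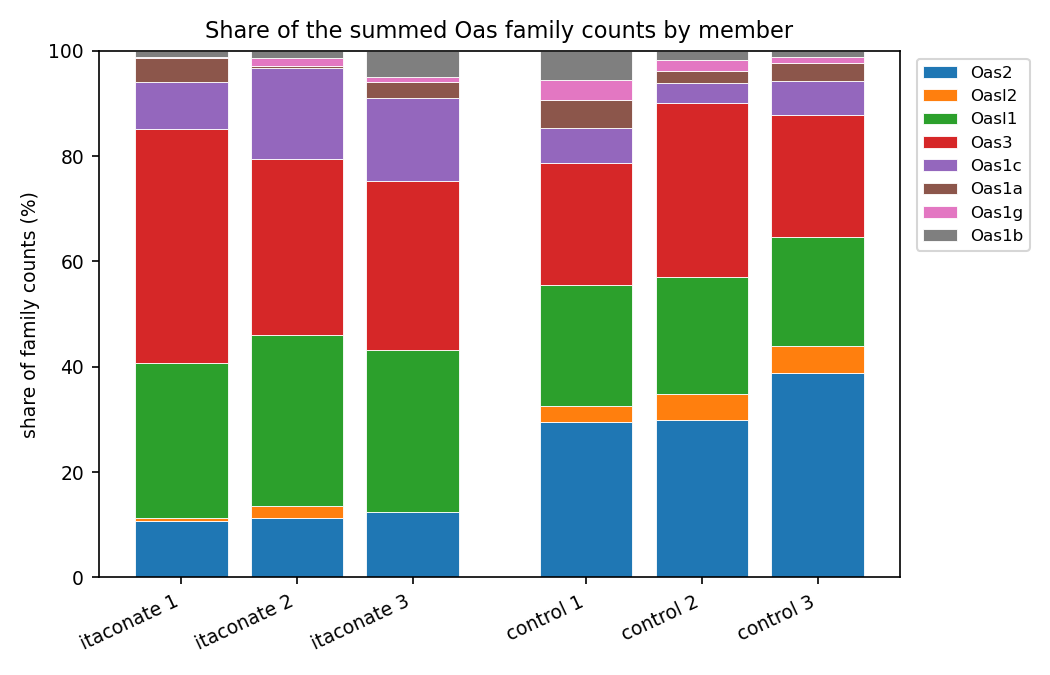
Share of the summed counts of the 8 Oas genes (vertical axis, percent) taken by each gene in the 3 itaconate and 3 control libraries. Oas2 takes 10.7% to 12.3% of the column in itaconate libraries and 29.6% to 38.7% in control libraries, and Oas3, Oasl1 and Oas1c take larger mean shares in the itaconate libraries.

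Among genes linked to the turnover or action of the oligoadenylates, 0 of 3 were called, against 21.9% of all tested genes in either direction. A list of 3 genes is too short to tell this count from that share. Their median log2 fold change was 0.12, against -0.01 over all tested genes. Pde12, a phosphodiesterase that degrades oligoadenylates, had a log2 fold change of -0.33 ± 0.21, and its exons overlap Arf4 on the opposite strand. The libraries of Pde12 overlapped, with 152, 106 and 122 counts after itaconate against 174, 204 and 134 counts in control and a 95% interval of its log2 fold change from -0.74 to 0.09 (edgeR adjusted p = 0.282). Akap7, whose mouse protein can also degrade oligoadenylates, had a log2 fold change of 0.12 ± 0.16, and Abce1, which is best known for recycling ribosomes, had 0.13 ± 0.13.

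Genes of the pathway that leads from interferon to the Oas genes were counted from a list of 12, of which 10 were tested, 4 were called lower, 0 higher and 6 not called. The median log2 fold change was -0.28, against -0.01 over all tested genes, of which 11.2% were called lower. Interferon-beta itself (Ifnb1) had 0 counts in all 6 libraries. The receptor genes Ifnar1 and Ifnar2 (log2 fold changes 0.05 ± 0.22 and 0.21 ± 0.09) and the receptor-bound kinase genes Jak1 and Tyk2 (-0.12 ± 0.09 and -0.03 ± 0.14) were not called. Without itaconate replicate 3, Ifnar2 was called higher (adjusted p = 0.0389). Ifnar2 exons overlap Gm21970 on the same strand. Irf9, a transcription factor that carries the interferon signal to the response element shown above, fell to 32.7 ± 5.14 CPM in itaconate libraries, against 74.2 ± 14.4 CPM in control libraries (SD, n = 3 each). Its log2 fold change was -1.18 ± 0.16 (edgeR adjusted p = 7.46e-08), and its exons overlap Rnf31 on the same strand. Stat2, which acts with Irf9, was not called (-0.44 ± 0.20, edgeR adjusted p = 0.113).

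Irf7, the interferon factor whose translation Oasl1 restrains, had 111, 95 and 106 counts in itaconate libraries against 568, 486 and 528 counts in control libraries. Its log2 fold change was -2.25 ± 0.16 (edgeR adjusted p = 1.66e-16), beside -0.83 ± 0.20 for Oasl1. Usp18, which damps receptor signalling, had -0.75 ± 0.17 and was called lower, and Irf3, which is not itself interferon-induced, had -0.09 ± 0.17 and was not. Irf1 was called lower (-0.53 ± 0.18, adjusted p = 0.0308), a call lost without itaconate replicate 1 (0.144) or 3 (0.0623) or control replicate 2 (0.224). The feedback inhibitor gene Socs1 had at most 8 counts in a library and was not tested.

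Of 8 other genes for sensing or handling double-stranded RNA and related nucleic acids, 7 were called lower and 0 higher, against 11.2% and 10.7% of all tested genes. Their median log2 fold change was -1.10, against -0.01 over all tested genes. Zbp1, the Z-form nucleic acid sensor, had 3, 9 and 5 counts in itaconate libraries against 45, 30 and 46 counts in control libraries (log2 fold change -2.72 ± 0.61, edgeR adjusted p = 0.000609). It reached 10 counts in 0 itaconate libraries and so entered the test through the control group, while the other 7 reached 10 counts in all 6 libraries. Ifih1 (MDA5) and Ddx58 (RIG-I), the cytosolic RNA helicases, had -1.08 ± 0.22 and -1.12 ± 0.19, their relative Dhx58 had -1.42 ± 0.30, and the endosomal receptor gene Tlr3 had -1.73 ± 0.46. Adar, the RNA-editing enzyme that limits endogenous double-stranded RNA, had -0.67 ± 0.15. Adar exons overlap Chrnb2 on the opposite strand. Eif2ak2, the kinase PKR that like the Oas enzymes is switched on by double-stranded RNA, had -0.65 ± 0.19, a call lost without itaconate replicate 1 or control replicate 3 (adjusted p = 0.115 each). Mavs, the shared adaptor of the helicases, had 0.14 ± 0.17 and was not called. Among genes tied to the Oasl proteins, Irf7 and Ddx58 were lower, and Mb21d1, which encodes the DNA sensor cGAS that mouse Oasl2 binds, was not called (-0.18 ± 0.14). The cGAS symbol of newer annotations was not used in the table.

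**Figure D4:**
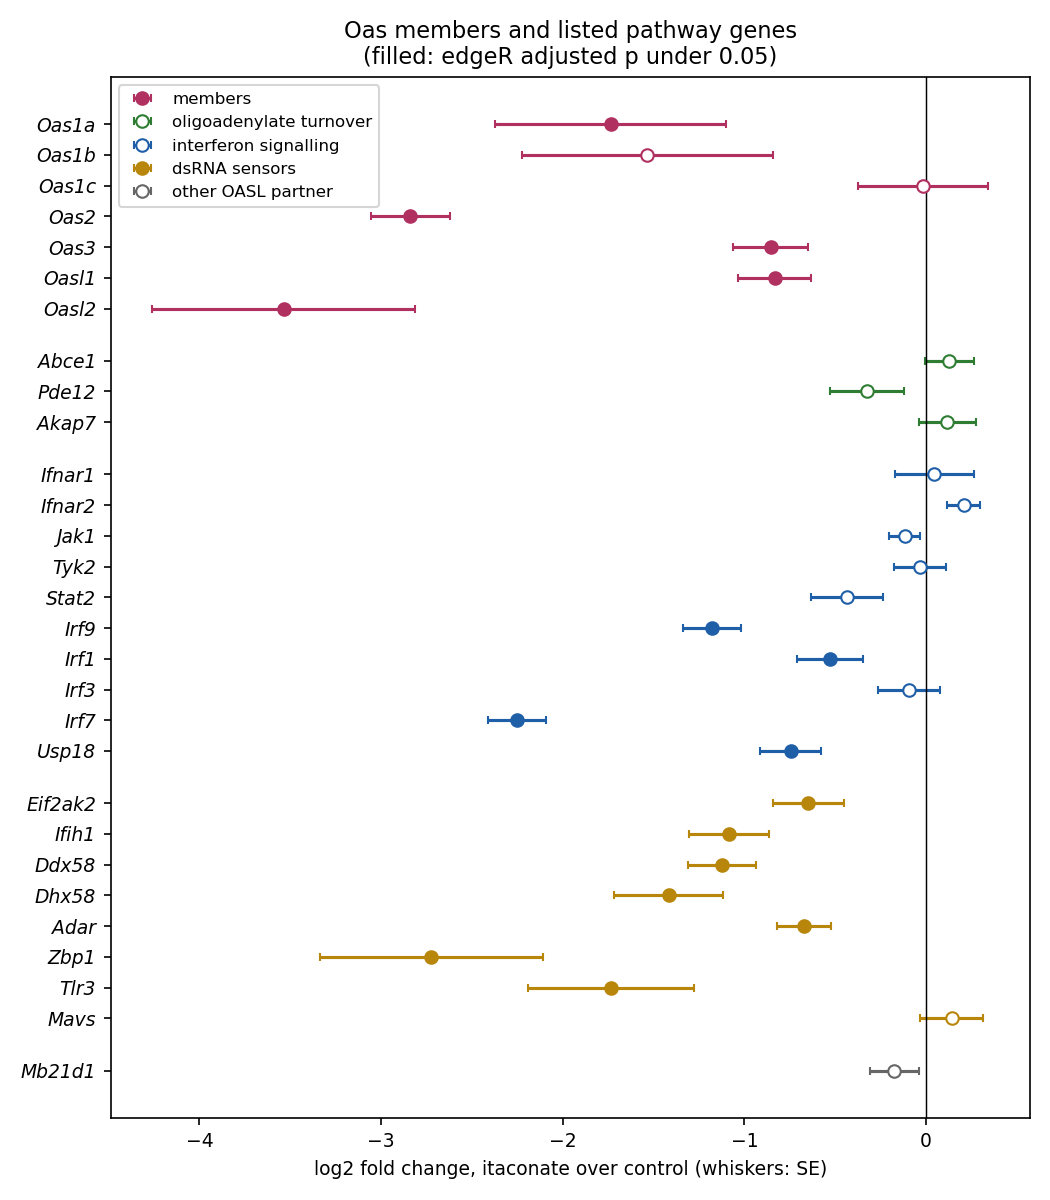
Log2 fold change of itaconate over control (horizontal axis, whiskers SE) for the 7 tested Oas genes and the listed pathway genes, with filled points for genes called at an edgeR adjusted p under 0.05. The 3 points of the oligoadenylate turnover group are open and lie between -0.33 and 0.13. Filled points left of 0 include 5 of the 7 Oas genes and 7 of the 8 genes labelled dsRNA sensors. Mb21d1 (cGAS) is drawn apart from these and is open.

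The profile of the family was also compared with other tested genes. Members and symbols of unnamed or predicted genes were left out, which left 8764 genes averaging 5 CPM or more. The 5 whose centred log2 CPM differed least from the mean profile of the 7 tested members were Gpx1, Ccl6, Ifi27l2a, Hjurp and Cybb. Their root mean square differences over the 6 libraries were 0.083 to 0.127 on the log2 scale. Gpx1 encodes a glutathione peroxidase, Ccl6 a chemokine, Ifi27l2a an interferon-induced mitochondrial protein, Hjurp a centromere chaperone and Cybb a subunit of the phagocyte oxidase. The members themselves differed from their mean profile by 0.378 (Oasl1) to 1.12 (Oasl2), so these 5 genes match the average of unlike members rather than any single member.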

How the data were processed

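The authors deposited raw counts of reads per gene symbol for 6 libraries, not normalized. Tools listed in the submitters' processing notes were HTSeq 0.6.1, STAR 2.7.5a and edgeR, with mm10 as the build. For annotation, strand setting and reads that map to several places, the sources used here state nothing. The 6 count columns were matched to libraries by the 6 header names, and 0 columns belonged to another series.

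All genes were fitted together. The filter of edgeR's filterByExpr (minimum count 10, minimum total 15) left 10636 of 35976 symbols, holding 99.74% of counts. Groups were compared with the quasi-likelihood F test of edgeR 4.0.16 under R 4.3.3 (robust fit, TMM scaling, group as the only term), with Benjamini-Hochberg adjustment over all genes tested. SE was the size of the log2 fold change over the root of F, and intervals use the test's degrees of freedom. CPM is TMM-scaled. Alternatives were DESeq2 1.42.0, limma-voom (limma 3.58.1), library totals, no filter, a minimum count of 30, a replicate block, and each library left out. The statistics were tested on simulated data. The members and the pathway and marker lists were chosen with earlier results of these data known. Genes named are all members, all genes of those lists, and the 5 genes most like the members' mean profile (root mean square difference of centred log2 CPM, prior count 2). Some genes of these pathways are not reported here. Apol9a and Apol9b are named from the promoter search. Sequences and coordinates are from RefSeq, GRCm38.p6, the assembly that mm10 names, and 3′ ends from GENCODE M21. RAW264.7 comes from another mouse strain than that reference.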

Additional observations from a re-analysis of the deposited data

How the results depend on the processing

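The number of members called lower was 5 with DESeq2, limma-voom, library totals and the replicate block, 6 with no filter, where Oas1g was tested and called (log2 fold change -2.64, adjusted p = 0.0362), and 3 of 4 tested with a minimum count of 30, which removes the low members from the test. It ranged from 3 to 5 over the 6 fits that left out a library, with 3 without control replicate 2. The genes behind a count of 5 differed. Oas1a was among them only without itaconate replicate 1 (edgeR adjusted p = 0.0213), and Oas1b was called without itaconate replicate 3 (0.0397). Oas1g passed the filter in some of these fits. Oas1g was called without itaconate replicate 2 (adjusted p = 0.029) or control replicate 3 (0.019), but not without itaconate replicate 1 (0.0946) or 3 (0.0512). The summed family ran from -1.40 to -1.27 over the 6 fits that left out a library, and summing the Oas1 paralogs alone gave -0.83. The sum of all Oas1 paralogs ran from -1.0 to -0.47 over them and that of Oas1a and Oas1g from -2.40 to -1.63. The differences in share, itaconate minus control, ran from -22.9 to -18.3 percentage points for Oas2, 8.24 to 9.74 for Oasl1, 6.73 to 10.9 for Oas1c and 6.31 to 13.5 for Oas3. Of 344 single-gene comparisons with another setting, 322 kept direction and side of the threshold, 11 lost a call, 2 gained one and 9 changed sign, in 4 genes that were not called. With library totals, Ifnar1 had -0.00625. With a library left out, the log2 fold change ran from -0.0586 to 0.17 for Ifnar1, -0.19 to 0.17 for Oas1c, -0.14 to 0.0891 for Tyk2 and -0.0149 to 0.20 for Akap7. The cause of these shifts was not tested.

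The libraries share replicate numbers between the groups, and the labels do not say whether same-numbered libraries share a culture or batch. Deviations of same-numbered libraries correlated at -0.01, 0.02 and 0.04 across genes, against -0.04 to 0.03 for differently numbered ones. A pairing that touches few genes could also give such values, so they cannot decide whether the libraries are paired. With the replicate block, 2247 genes were called, against 2324 without it, and the summed family had -1.33. Depth limits Oas1a, Oas1b, Oas1g and Oasl2, each with at most 27 counts over the whole itaconate group.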
